A study of Homo sapiens with 12 samples.

Results

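The 49 genes described here encode proteins that dock, fuse and recycle synaptic and dense-core vesicles. They were taken as a list of gene symbols by their function, out of 20046 genes with a single symbol on the array. The list was chosen with earlier results of these data known. All 49 had at least 1 probe, 42 were detected on at least 1 array and could be tested, and 7 (SYT5, SV2C, SYN3, SNCG, RIMS1, DNM3 and AMPH) were detected on none. The cells were SK-N-Be(2)C, an established human neuroblastoma line that came from bone marrow, and each group held 3 arrays. DoxR-v cells were selected for doxorubicin resistance by stepwise increases of the drug and were exposed to vorinostat (SAHA), a histone deacetylase inhibitor, now and then, at each logarithmic step of the dose. DoxR cells were selected with doxorubicin in the same stepwise way but without vorinostat. WT-v cells were wild type cells exposed to vorinostat alone on the same schedule, and WT cells were the parental line with neither drug. DoxR-v and DoxR cells are separately selected populations, so the selection itself cannot be told apart from vorinostat where they are compared. The labels number 3 samples per group without saying that they came from separate cultures, so the p-values measure the spread between these samples, which may be technical.

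Neurons and neuroendocrine cells store transmitter in small synaptic vesicles and store catecholamines and peptides in larger dense-core vesicles. Rab GTPases and active zone proteins tether a vesicle, SNARE proteins on the vesicle and on the plasma membrane zip together, synaptotagmins couple fusion to calcium, and NSF with its adaptors takes the used SNARE complexes apart. Dynamin and its partners then retrieve the membrane by endocytosis. Neuroblastoma arises from the sympathoadrenal lineage, whose mature cells release catecholamines from dense-core vesicles.

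Each value below is a log2 signal of the brightest probe of a gene, after background correction and quantile normalization, and probes of different genes were not compared in level. A probe was called detected at a detection p under 0.01. A gene was called higher or lower where limma gave a Benjamini-Hochberg adjusted p under 0.1, over all probes kept, and a fold change over 1.5. Between 31.3% and 36.5% of the probes were detected per array, and arrays of a group correlated at 0.981 to 0.993. From 36 to 37 members were detected on each DoxR-v, DoxR and WT-v array, and 34 or 35 on each WT array. All 7 of the 8 adrenergic neuroblastoma markers that have a probe were detected in every group, while the glial markers SOX10 and S100B and the blood cell markers PTPRC, CD3E and HBB were detected on no array. CD14, another blood cell marker, was detected on 2 of 3 DoxR-v arrays and on all arrays of the other groups. Of the 8 mesenchymal markers, FN1, YAP1, PRRX1 and NOTCH2 were detected on no array and CD44 on no WT-v array, and the summed linear signal of the list was 6103 to 8182 in DoxR-v, 16172 to 17650 in DoxR, 7473 to 8544 in WT-v and 3140 to 3370 in WT arrays. The summed adrenergic signal was 16359 to 22542 in DoxR-v, 15823 to 16573 in DoxR, 20659 to 25000 in WT-v and 19705 to 23092 in WT arrays. In DoxR against WT cells, 1 of the 7 adrenergic markers was called higher and 2 lower. The mean log2 signal there was 8.83 against 12.92 for DBH, 10.37 against 11.62 for HAND2 and 10.31 against 9.52 for PHOX2A. The mesenchymal sum lay above the WT arrays in all 3 other groups, and the 4 detected mesenchymal markers did not move together. VIM was called higher than WT in all 3 groups, CD44 higher in DoxR-v and DoxR and lower in WT-v, SNAI2 lower in DoxR-v and higher in DoxR and WT-v, and TWIST1 lower in DoxR-v and DoxR and higher in WT-v. The part of these markers in the results was not tested. In a bulk sample a smaller number of cells expressing a gene cannot be told apart from less RNA per cell.

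Some vesicle genes were called against WT in each of the other 3 groups, in both directions, as were 26.0% to 33.9% of all genes. The shares below are descriptive, and whether those of the members exceed those of all genes was not tested. In DoxR-v cells 14 of 42 members were called (33.3%), 11 higher and 3 lower, where 26.0% of all 12079 genes tested were called (13.3% higher and 12.6% lower). In DoxR cells 21 were called (50%), 12 higher and 9 lower, against 33.9% of all genes (17.5% higher and 16.4% lower). Among these calls, STX3 passed the detection filter only through 1 DoxR array and CADPS2 only through 1 WT array. SV2B passed it only through 1 WT and 1 WT-v array. The filter itself favours the direction of these calls, so they add no support to the count. In WT-v cells 14 were called (33.3%), 8 higher and 6 lower, against 27.1% of all genes (14.5% higher and 12.6% lower). Between the resistant lines, DoxR-v against DoxR, 17 members were called (40.5%), 10 higher and 7 lower, against 29.2% of all genes (14.8% higher and 14.5% lower). In DoxR-v against WT-v, 14 were called, 12 higher and 2 lower, against 25.5% of all genes (12.7% higher and 12.8% lower). The median log2 change of the members was 0.24 in DoxR-v against WT, where that of all genes was 0.02, and the matching pairs were 0.14 and 0.01 in DoxR against WT, −0.10 and 0.03 in WT-v against WT, 0.15 and 0.00 in DoxR-v against DoxR, and 0.33 and −0.03 in DoxR-v against WT-v.

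The balance of directions depended on scaling. With median scaling instead of quantile normalization, the members called were 19 higher and 0 lower in DoxR-v against WT, 18 and 5 in DoxR against WT, and 11 and 4 in WT-v against WT. All genes shifted the same way, with 33.0%, 37.0% and 34.2% of them called and 80.5%, 72.6% and 80.2% of those calls higher, so in WT-v the members' share of higher calls (73.3%) was below that of all genes. Median scaling also moved the median of all genes to 0.24 in DoxR-v, 0.19 in DoxR and 0.24 in WT-v against WT. With the deposited normalized values, 2 members were higher and 5 lower in WT-v against WT, where 11.6% of all genes were called and 48.3% of those calls were higher.

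The deposited values gave smaller changes and fewer calls for members and for all genes, and 42 of the 100 calls of a member did not pass with them, all in the same direction. The lost calls against WT were those of RAB3A, RPH3A, SYNGR1, SYNGR3, CADPS and DLG4 in DoxR-v, of RAB3A, VAMP1, STX3, SYP, SV2B, SYNJ1, CADPS and CADPS2 in DoxR, and of RAB3A, RPH3A, UNC13A, DNM1, VAMP2, SNAP23 and DLG4 in WT-v cells. In DoxR-v against DoxR they were those of RAB3C, VAMP3, STX3, SYNGR3, SNCB, DLG4 and NRXN2, and in DoxR-v against WT-v those of VAMP2, CPLX2, SYNGR1, SNCB and CADPS. Where DoxR-v minus DoxR was set against WT-v minus WT, they were those of DNM1, SNCB, NRXN2, STX3, STX7, SYNJ1, UNC13A, VAMP1 and VAMP2. RAB27B kept its calls in all 3 comparisons with WT, and so did RAB3C.

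**Figure D1:**
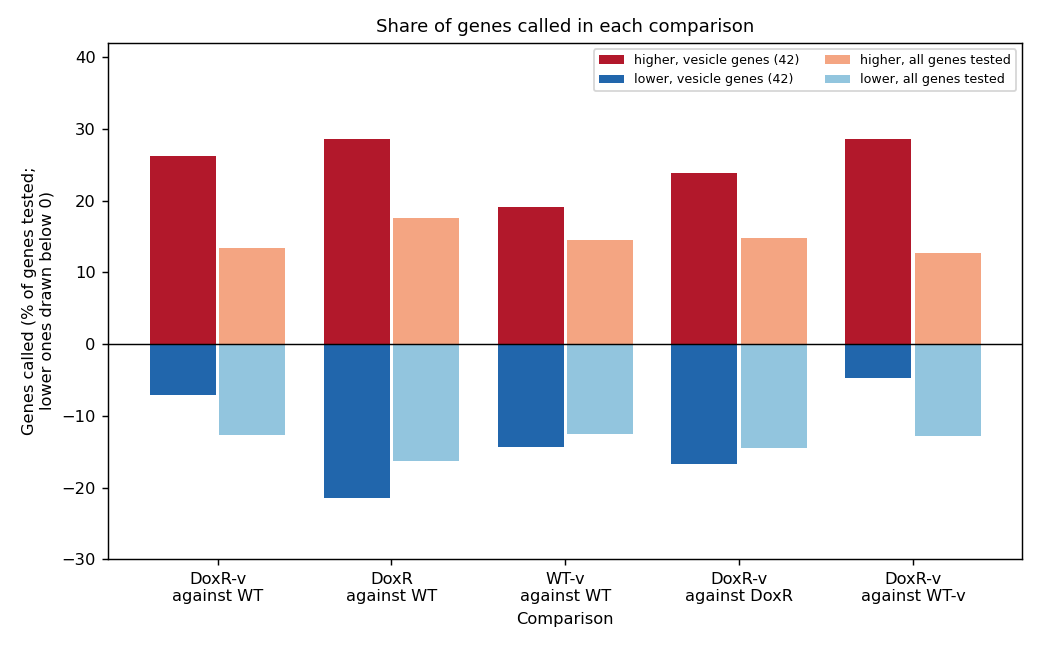
Share of genes called in 5 comparisons, in percent of genes tested, with genes called lower drawn below 0, for the 42 tested vesicle genes (dark bars) and all 12079 genes tested (pale bars). The vesicle genes had 11 higher and 3 lower calls in DoxR-v against WT, and 12 higher and 9 lower in DoxR against WT.

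**Figure D2:**
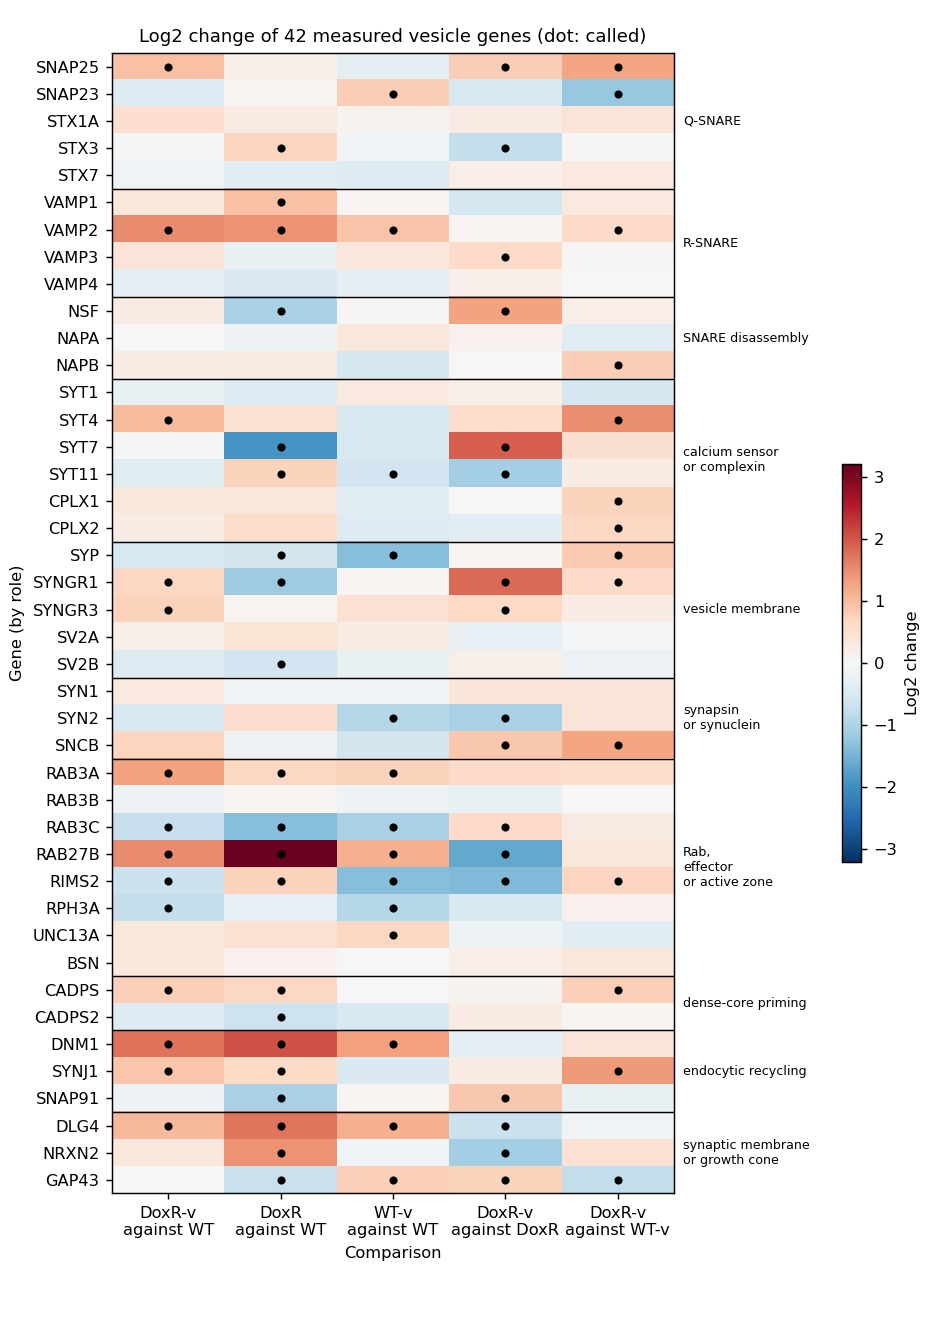
Log2 change of the 42 tested members (rows, grouped by role) in 5 comparisons (columns), red for higher and blue for lower, with a dot where the gene was called. DNM1, RAB27B, VAMP2, RAB3A and DLG4 carry a dot for a higher value in all 3 comparisons with WT, and RAB3C for a lower one, and of these RAB27B and RAB3C kept all 3 with the deposited normalized values. Colours are fitted values, also for DNM1, which was detected on no WT array.

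Of 8 tested genes of Rab proteins, their effectors and the active zone, 2 were called higher and 3 lower in DoxR-v against WT. In DoxR 3 were higher and 1 lower, and in WT-v 3 were higher and 3 lower. Over all genes, 13.3% were called higher and 12.6% lower in DoxR-v, 17.5% and 16.4% in DoxR, and 14.5% and 12.6% in WT-v. With so few genes per role, the role counts are descriptive. RAB27B and RAB3A were higher and RAB3C lower in DoxR-v, DoxR and WT-v cells, while RIMS2 was lower in DoxR-v and WT-v cells and higher in DoxR cells. RAB27B, a GTPase that brings dense-core and other secretory vesicles to the plasma membrane, measured 8.54, 8.03 and 7.92 in DoxR-v arrays, 9.90, 9.79 and 9.73 in DoxR, 7.82, 7.96 and 7.60 in WT-v, and 6.50, 6.68 and 6.75 in WT. Every array of the other 3 groups lay above every WT array, and the DoxR arrays lay above all others. The log2 change against WT was 1.52 in DoxR-v (SE 0.17, limma adjusted p = 3.2e-05), 3.16 in DoxR (SE 0.17, adjusted p = 1.94e-08) and 1.15 in WT-v cells (SE 0.17, adjusted p = 0.000334), and DoxR-v cells were 3.12-fold lower than DoxR cells (adjusted p = 9.61e-06). The other 2 RAB27B probes were detected on no array, and averaged over all probes of the gene the DoxR-v and WT-v changes were 0.54 and 0.39 and no longer passed the fold threshold.

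RAB3A, the main GTPase of synaptic vesicles, measured 6.93, 6.86 and 7.21 in DoxR-v, 6.33, 6.33 and 6.47 in DoxR, 6.49, 6.09 and 6.76 in WT-v, and 4.93, 6.31 and 5.88 in WT arrays, where it was detected on 2 of 3. The WT arrays were widely spread, and the WT-v and WT arrays overlapped. It was 2.45-fold higher in DoxR-v cells (adjusted p = 0.0039), 1.59-fold in DoxR (adjusted p = 0.0777) and 1.67-fold in WT-v cells (adjusted p = 0.0602). The DoxR and WT-v calls rested on single arrays, with log2 changes of 0.28 in DoxR and 0.35 in WT-v against WT without WT replicate 1, and were also lost without any 1 of the DoxR arrays or without WT-v replicate 1 or 3. With the deposited normalized values none of the 3 passed, at 0.46 in DoxR-v, 0.20 in DoxR and 0.23 in WT-v cells. RAB3C, a close relative, ran the other way, at 10.12, 9.98 and 10.11 in DoxR-v, 9.25, 9.48 and 9.61 in DoxR, 9.71, 9.99 and 9.62 in WT-v, and 10.82, 10.95 and 10.65 in WT arrays. All WT arrays were above all others, and RAB3C was 1.67-fold lower in DoxR-v (adjusted p = 0.00272), 2.56-fold lower in DoxR (adjusted p = 1.5e-05) and 2.04-fold lower in WT-v cells (adjusted p = 0.00029). DoxR-v cells had 1.54-fold more RAB3C signal than DoxR cells (adjusted p = 0.00642), a log2 difference of 0.62, which fell to 0.52 and under the fold threshold without DoxR replicate 1. RAB3B was detected on 1 DoxR array and was called in no comparison.

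RIMS2, a RAB3 effector that organises the release site, separated all 4 groups. It measured 10.11, 9.75 and 9.98 in DoxR-v, 11.39, 11.42 and 11.30 in DoxR, 9.22, 9.32 and 9.22 in WT-v, and 10.65, 10.42 and 10.80 in WT arrays, with no overlap between any pair of groups. The log2 change was −0.68 in DoxR-v (adjusted p = 0.00324), 0.74 in DoxR (adjusted p = 0.00112) and −1.37 in WT-v against WT (adjusted p = 1.94e-05), −1.42 in DoxR-v against DoxR (adjusted p = 6.68e-06) and 0.70 in DoxR-v against WT-v (adjusted p = 0.00267). The DoxR-v call against WT was lost without DoxR-v replicate 2 (−0.58) and with median scaling (−0.42). RPH3A, another RAB3 effector, was detected on 2 DoxR-v, 3 DoxR, 2 WT-v and 3 WT arrays and measured 5.79, 5.22 and 5.68 in DoxR-v, 5.95, 6.25 and 6.00 in DoxR, 5.58, 5.07 and 5.62 in WT-v, and 6.03, 6.38 and 6.60 in WT. It was 1.70-fold lower in DoxR-v (adjusted p = 0.0132) and 1.88-fold lower in WT-v than in WT cells (adjusted p = 0.00468), neither of which passed with the deposited normalized values. UNC13A, which primes vesicles for fusion, was 1.58-fold higher in WT-v cells (adjusted p = 0.00528), at 6.03, 6.08 and 6.12 in WT-v arrays against 5.48, 5.17 and 5.59 in WT arrays, where it was detected on 1 of 3. Without WT replicate 2 its change was 0.54 and under the fold threshold, and a second probe gave 0.17 in WT-v cells (adjusted p = 0.464). BSN, the active zone scaffold bassoon, was called in no comparison, with log2 changes of 0.34 in DoxR-v, 0.13 in DoxR and −0.02 in WT-v against WT.

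The stretch of 100 bases before the most upstream listed transcription start is printed for the genes that were higher than WT in all 3 groups. The sequences are from RefSeq on GRCh38.p14, and run 5′ to 3′ on the strand of the gene. Capitals mark GC boxes, GGGCGG on either strand, the element bound by SP1-type factors.
RAB27B, chr18:54717757-54717856, plus strand: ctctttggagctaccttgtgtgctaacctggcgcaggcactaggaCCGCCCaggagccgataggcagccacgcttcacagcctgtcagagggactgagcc
RAB3A, chr19:18204043-18204142, minus strand: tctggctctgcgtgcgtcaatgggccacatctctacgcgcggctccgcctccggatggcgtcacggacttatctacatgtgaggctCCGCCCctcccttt
DNM1, chr9:128203279-128203378, plus strand: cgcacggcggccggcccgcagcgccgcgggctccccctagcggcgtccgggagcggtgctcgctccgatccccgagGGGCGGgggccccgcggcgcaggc
VAMP2, chr17:8162949-8163048, minus strand: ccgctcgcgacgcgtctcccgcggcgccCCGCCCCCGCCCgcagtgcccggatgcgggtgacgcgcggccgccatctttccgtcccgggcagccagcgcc
DLG4, chr17:7220051-7220150, minus strand: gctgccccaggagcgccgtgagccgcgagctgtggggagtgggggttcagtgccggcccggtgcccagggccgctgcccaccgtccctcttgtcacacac
The stretch shown held 1 GC box in RAB27B, RAB3A and DNM1, 2 in VAMP2 and 0 in DLG4, which had 2 in the full 300 bases of the same promoter entry.

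Over the full promoter entries of 300 bases, 41 of the 64 entries of members held a GC box (64.1%), where 45% of all 35116 promoters did. The members without an entry are CADPS2, CPLX1, NRXN2, RIMS2, SNAP25, SYN3, SYNGR3 and SYT7. An E-box (CACGTG) was found in 2 of the 64 entries, those of NAPA and UNC13A (3.12%, where 7.26% of all promoters held one), and a cAMP response element (TGACGTCA) in 2, those of SYN1 and DLG4 (3.12%, against 1.85%). The RE1 element, the site of the neuronal gene repressor REST, was searched by its consensus on both strands with up to 2 mismatches, and was found in 17 promoters (0.0484%), among them those of SYN1 and RPH3A. They are shown with the matched bases in capitals, since SYN1 is a classic REST target.
SYN1, chrX:47620066-47620094, minus strand, 1 mismatch: cagcTTCAGCACCGCGGACAGTGCCttcg
RPH3A, chr12:112791544-112791572, plus strand, match on the opposite strand, 2 mismatches: tcttAGCGCTGTCCGTGGTGCTGACcgcc
The first matched base lay at −233 from the start in SYN1, and at −200 from one start and 10 from another in RPH3A. REST and its partner RCOR1 were detected on no array. The other 4 regulators looked up, RCOR2, RCOR3, SIN3A and KDM1A, were detected on every array. Of these, 1 was called higher (RCOR3) and 1 lower (RCOR2) in DoxR against WT cells, and none was called in DoxR-v against WT. Their part in the results was not tested. SYN1 itself was called in no comparison, and RPH3A had the calls given above, so these matches stand as a description of the sequence.

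Of 3 tested genes of endocytic recycling, 2 were called higher in both resistant lines, 1 lower in DoxR cells and 1 higher in WT-v cells, against WT. Over all genes, 12.6% to 17.5% were called in either single direction in these comparisons. DNM1, the dynamin that pinches off recycling vesicles in neurons, measured 6.93, 7.08 and 7.08 in DoxR-v, 7.30, 7.10 and 7.61 in DoxR, 6.68, 6.11 and 7.07 in WT-v, and 5.07, 5.30 and 5.52 in WT arrays. It was detected on every array of the first 3 groups and on no WT array, so only a lower bound of the change is given. It was at least 2.63-fold higher in DoxR-v (adjusted p = 8.45e-05), 3.25-fold in DoxR (adjusted p = 1.17e-05) and 1.98-fold in WT-v cells (adjusted p = 0.000709), the last not called with the deposited normalized values (0.42). DNM3, the other dynamin of the list, and AMPH, a dynamin partner, were detected on no array. SYNJ1, the phosphatase that strips clathrin coats, measured 8.83, 8.75 and 9.24 in DoxR-v, 8.82, 8.56 and 8.69 in DoxR, 7.38, 7.88 and 7.46 in WT-v, and 7.96, 7.97 and 8.21 in WT arrays. Both resistant lines lay above both other groups, with a 1.86-fold higher value in DoxR-v (adjusted p = 0.00196) and 1.57-fold in DoxR against WT (adjusted p = 0.0101), and 2.58-fold in DoxR-v against WT-v (adjusted p = 9.15e-05). The DoxR call was lost without DoxR replicate 1 (0.58), and with the mean of all SYNJ1 probes, of which 1 was undetected and 1 was detected on a single array, the change turned to −0.02. SNAP91, an adaptor that assembles clathrin on synaptic vesicle membrane, measured 10.27, 10.13 and 10.46 in DoxR-v, 9.51, 9.30 and 9.43 in DoxR, 10.53, 10.65 and 10.39 in WT-v, and 10.49, 10.32 and 10.55 in WT. The DoxR arrays lay below all others, 2.06-fold lower than WT (adjusted p = 7.51e-05), and DoxR-v cells were 1.83-fold higher than DoxR cells (adjusted p = 0.000341).

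Among the SNAREs of vesicles, VAMP2 was higher than WT in all 3 groups, VAMP1 in DoxR cells, and VAMP3 and VAMP4 in none. VAMP2, the synaptobrevin of most synaptic vesicles, measured 7.58, 7.85 and 8.34 in DoxR-v, 7.96, 7.66 and 7.97 in DoxR, 7.65, 7.02 and 7.28 in WT-v, and 6.25, 6.10 and 6.89 in WT arrays. Every WT array lay below all others, and the fold was 2.85 in DoxR-v (adjusted p = 0.000516), 2.73 in DoxR (adjusted p = 0.000419) and 1.87 in WT-v cells (adjusted p = 0.0128), the last not called with the deposited normalized values (0.41). The call of DoxR-v against WT-v (1.52-fold, adjusted p = 0.0781) was made on overlapping arrays, and its log2 difference was 0.40 without DoxR-v replicate 3, 0.46 without WT-v replicate 2, 0.64 without DoxR-v replicate 2 and 0.59 without WT-v replicate 3, none of them called. VAMP1, the other neuronal synaptobrevin, measured 6.15, 6.76 and 6.45 in DoxR-v, 6.86, 7.09 and 7.14 in DoxR, 6.29, 6.10 and 6.07 in WT-v, and 5.84, 6.24 and 6.20 in WT. It was 1.91-fold higher in DoxR than in WT cells (adjusted p = 0.000898), with no overlap of these groups, but did not pass the fold threshold with the deposited normalized values (0.38). VAMP3, a synaptobrevin of widespread recycling endosomes, was 1.54-fold higher in DoxR-v than in the DoxR line (adjusted p = 0.00565), at 10.29, 10.59 and 10.25 in DoxR-v against 9.89, 9.63 and 9.75 in DoxR arrays. Without DoxR-v replicate 2 or DoxR replicate 2 its log2 difference was 0.51 or 0.56, under the fold threshold.

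Of the paired plasma membrane SNAREs, SNAP25 was higher and SNAP23 lower in DoxR-v than in WT-v cells. SNAP25, the neuronal form, measured 11.87, 11.51 and 11.87 in DoxR-v, 10.99, 10.97 and 10.93 in DoxR, 10.59, 10.48 and 10.41 in WT-v, and 10.82, 10.62 and 10.98 in WT arrays. The DoxR-v arrays lay above all others, 1.92-fold higher than WT (adjusted p = 0.00038), 1.73-fold higher than DoxR (adjusted p = 0.000977) and 2.39-fold higher than WT-v (adjusted p = 4.01e-05). A second SNAP25 probe was called in the same 3 comparisons, with log2 changes of 0.65, 0.90 and 0.84. SNAP23, the form of most other cells, measured 7.19, 7.37 and 7.22 in DoxR-v, 7.70, 7.88 and 7.71 in DoxR, 8.77, 8.09 and 8.53 in WT-v, and 7.93, 7.40 and 7.72 in WT. It was 1.72-fold higher in WT-v than in WT cells (adjusted p = 0.006) and 2.30-fold lower in DoxR-v than in WT-v cells (adjusted p = 0.00033). A second SNAP23 probe did not pass in either comparison, at −0.01 in WT-v against WT (adjusted p = 0.978) and −0.32 in DoxR-v against WT-v (adjusted p = 0.223), and gave a call of −0.67 in DoxR-v against DoxR (adjusted p = 0.0138).

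The syntaxins are the other SNAREs of plasma and endosomal membrane, and of 3 tested only STX3 was called in a comparison of 2 groups. STX1A, the partner of SNAP25 at the synapse, was called in no comparison, and its log2 change was 0.53 in DoxR-v against WT (95% interval 0.11 to 0.95, adjusted p = 0.055). STX7, an endosomal syntaxin, passed the fold threshold against none of the groups. STX3, a syntaxin of dense-core and apical fusion, was detected on 1 DoxR array alone, at 4.65, 4.44 and 4.40 in DoxR-v, 5.75, 5.13 and 4.88 in DoxR, 4.50, 4.51 and 4.37 in WT-v, and 4.56, 4.60 and 4.51 in WT, so its calls in DoxR against WT (adjusted p = 0.0104) and in DoxR-v against DoxR (adjusted p = 0.00759) are given with no fold.

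NSF, the ATPase that separates used SNARE complexes, was lower in the DoxR line, set against either WT or DoxR-v cells. It measured 11.95, 11.77 and 11.61 in DoxR-v, 10.53, 10.47 and 10.47 in DoxR, 11.51, 11.56 and 11.61 in WT-v, and 11.49, 11.31 and 11.78 in WT arrays. The DoxR arrays lay below all others with no overlap, 2.05-fold lower than WT (adjusted p = 0.00011), and DoxR-v cells were 2.44-fold higher than DoxR cells (adjusted p = 2.01e-05). Of 4 further detected NSF probes, 3 were called lower in DoxR cells, with log2 changes of −0.96, −0.74 and −0.76, and higher in DoxR-v against DoxR, at 1.22, 1.03 and 1.35. The fourth was detected on 1 array and gave −0.21 and −0.20. The adaptors NAPA and NAPB (alpha- and beta-SNAP) were called in no comparison with WT. NAPB was 1.73-fold higher in DoxR-v than in WT-v cells (adjusted p = 0.0009), at 9.74, 9.38 and 9.51 against 8.70, 8.63 and 8.93.

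**Figure D3:**
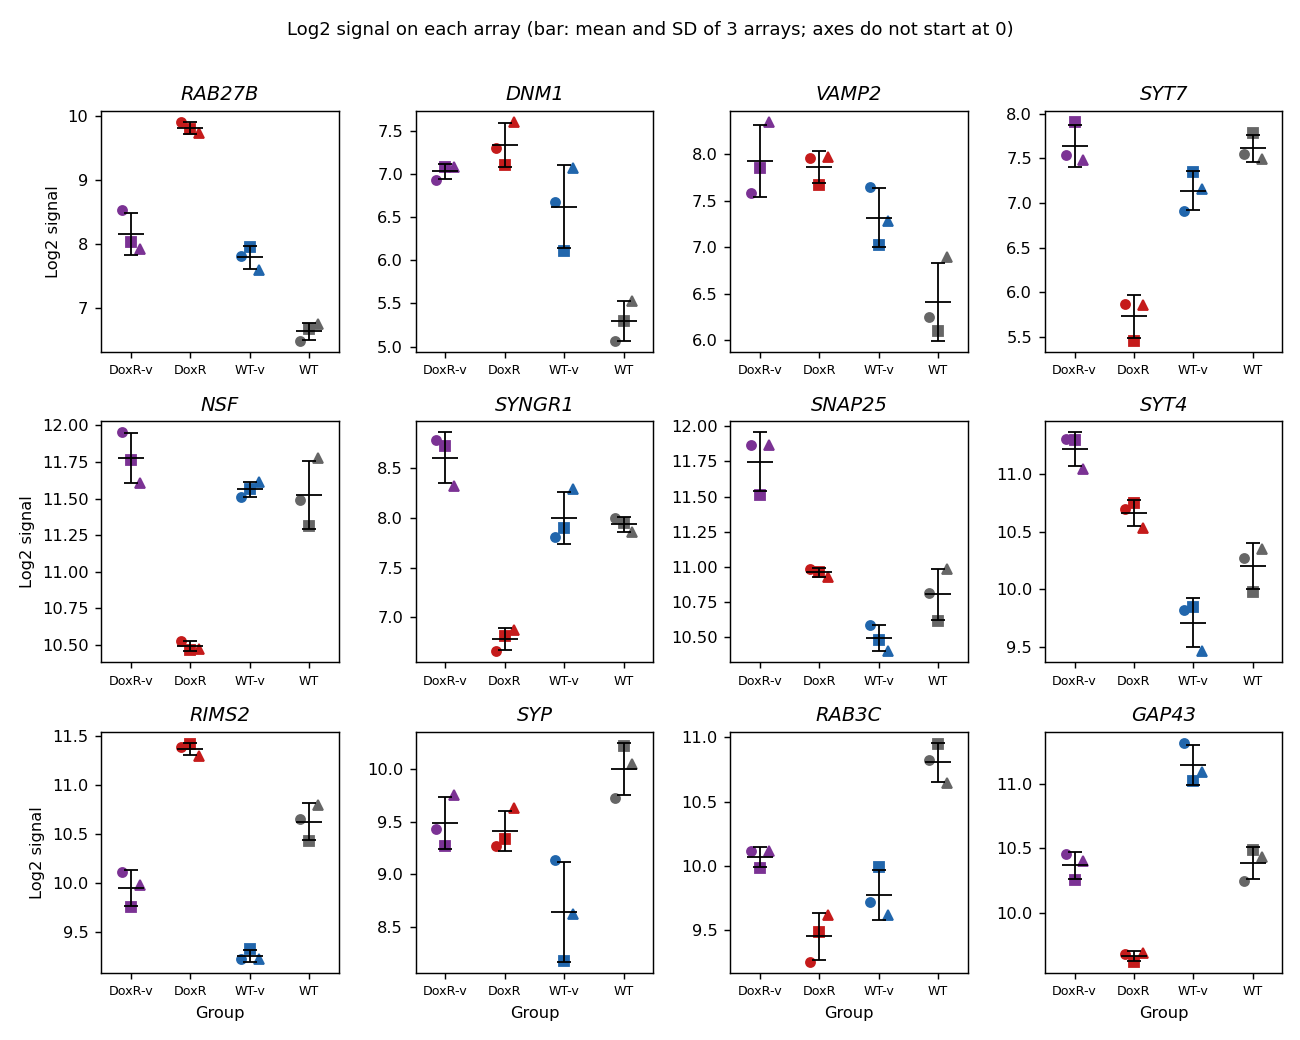
Log2 signal of 12 members on each array (marker shape: replicate number, not used as a pairing) in DoxR-v, DoxR, WT-v and WT cells, with the mean and SD of 3 arrays. The axes differ between panels and do not start at 0. The DoxR arrays are the lowest for SYT7, NSF and SYNGR1 and the highest for RAB27B.

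Calcium sensors went in several directions. SYT7, a high-affinity synaptotagmin of dense-core and slow release, measured 7.54, 7.91 and 7.48 in DoxR-v, 5.87, 5.46 and 5.86 in DoxR, 6.91, 7.34 and 7.15 in WT-v, and 7.55, 7.78 and 7.50 in WT arrays. It was 3.68-fold lower in DoxR than in WT cells (adjusted p = 3.22e-06) and 3.76-fold higher in DoxR-v than in the DoxR line (adjusted p = 3.1e-06), while DoxR-v against WT gave 0.03 (95% interval −0.35 to 0.41). A dim second probe, detected on 9 arrays, gave −0.03 in DoxR against WT (adjusted p = 0.944) and −0.25 in DoxR-v against DoxR (adjusted p = 0.608), so the change rests on 1 of 2 detected probes. SYT4, a synaptotagmin that does not bind calcium in the usual way and sits on dense-core vesicles, measured 11.30, 11.29 and 11.04 in DoxR-v, 10.70, 10.75 and 10.53 in DoxR, 9.82, 9.85 and 9.46 in WT-v, and 10.27, 9.98 and 10.35 in WT. The DoxR-v arrays lay above all others, 2.02-fold higher than WT (adjusted p = 0.000395) and 2.83-fold higher than WT-v (adjusted p = 1.68e-05), and 0.55 higher than DoxR on the log2 scale, under the fold threshold (adjusted p = 0.0156).

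SYT11, a synaptotagmin that likewise lacks calcium binding and acts in membrane retrieval, measured 11.83, 11.76 and 11.66 in DoxR-v, 12.80, 12.93 and 12.79 in DoxR, 11.18, 11.84 and 11.51 in WT-v, and 12.20, 12.03 and 12.16 in WT. It was 1.64-fold higher in DoxR (adjusted p = 0.00325) and 1.53-fold lower in WT-v than in WT cells (adjusted p = 0.0106), and 2.1-fold lower in DoxR-v than in the DoxR line (adjusted p = 0.000169). The WT-v call was lost without WT-v replicate 1 (−0.45) or WT replicate 1 (−0.58). SYT1, the fast calcium sensor of synaptic vesicles, was called in no comparison, with log2 changes of −0.23 in DoxR-v, −0.42 in DoxR and 0.31 in WT-v against WT. The complexins CPLX1 and CPLX2, which clamp assembled SNAREs, were called against WT in none of the 3 groups by their brightest probes. Both were higher in DoxR-v than in WT-v cells, CPLX1 by 1.63-fold (adjusted p = 0.0309) and CPLX2 by 1.57-fold (adjusted p = 0.0317). The WT-v arrays stood at 10.88, 10.31 and 10.86 for CPLX1 and at 8.27, 7.33 and 8.08 for CPLX2, with replicate 2 lowest in both. Without it the log2 differences were 0.52 for CPLX1 and 0.37 for CPLX2 and neither passed, and CPLX1 was also lost without DoxR-v replicate 1 (0.58). A dimmer CPLX2 probe, detected on 5 arrays, was called lower in WT-v against WT (−0.61, adjusted p = 0.0769). In DoxR-v against WT-v that probe gave 0.39, and another, detected on 1 array, gave −0.24, neither called.

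Of 5 tested vesicle membrane proteins, 2 were called higher in DoxR-v, 3 lower in DoxR and 1 lower in WT-v against WT. The matching shares of all genes were 13.3% higher in DoxR-v, 16.4% lower in DoxR and 12.6% lower in WT-v. SYP, the abundant vesicle protein synaptophysin, measured 9.43, 9.27 and 9.76 in DoxR-v, 9.27, 9.34 and 9.63 in DoxR, 9.13, 8.18 and 8.62 in WT-v, and 9.73, 10.23 and 10.05 in WT arrays. It was 2.57-fold lower in WT-v (adjusted p = 0.000744) and 1.51-fold lower in DoxR than in WT cells (adjusted p = 0.0574), and 1.80-fold higher in DoxR-v than in WT-v cells (adjusted p = 0.0137). The DoxR call was lost without DoxR replicate 1 (−0.52) or 2 (−0.55) and without WT replicate 2 (−0.48) or 3 (−0.56). SYNGR1, a synaptophysin relative, measured 8.78, 8.71 and 8.31 in DoxR-v, 6.66, 6.82 and 6.87 in DoxR, 7.80, 7.90 and 8.29 in WT-v, and 8.0, 7.94 and 7.85 in WT. The DoxR arrays were lowest, 2.22-fold lower than WT (adjusted p = 0.000127), and DoxR-v cells were 3.53-fold higher than DoxR cells (adjusted p = 2.8e-06).

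The probes of SYNGR1 agreed on the DoxR difference and not on the others. Its 2 other detected probes gave −2.11 and −2.68 in DoxR against WT, and 1.77 and 2.66 in DoxR-v against DoxR, all called. In DoxR-v against WT they gave −0.34 and −0.02, not called, where the brightest probe was 1.59-fold higher (adjusted p = 0.0084). In WT-v against WT they were called lower, at −1.43 and −1.28, where the brightest probe gave 0.06. The brightest probe's calls in DoxR-v against WT and against WT-v were also lost without DoxR-v replicate 1, at 0.58 and 0.52, and the call against WT-v without DoxR-v replicate 2 (0.55) or WT-v replicate 1 (0.51) or 2 (0.56). SYNGR3 was detected on 1 DoxR-v and 1 WT-v array, and its calls in DoxR-v against WT (adjusted p = 0.0183) and against DoxR (adjusted p = 0.0297) had log2 differences of 0.55 and 0.47 without DoxR-v replicate 2, and 0.53 against DoxR without DoxR replicate 1, none of them called. SV2A, the target of the antiepileptic levetiracetam, was called in no comparison. SV2B was detected on 1 WT-v and 1 WT array, and its call in DoxR against WT (adjusted p = 0.0967) was −0.30 without WT replicate 1, and was also lost without DoxR replicate 1 or 2, DoxR-v replicate 2, or WT-v replicate 1 or 3.

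Of the synapsins, which tether vesicles in reserve, SYN2 changed and SYN1 did not pass in any comparison. SYN2 measured 8.90, 8.90 and 8.24 in DoxR-v, 9.68, 9.73 and 9.75 in DoxR, 8.25, 8.26 and 8.29 in WT-v, and 8.94, 9.11 and 9.46 in WT arrays. It was 1.87-fold lower in WT-v than in WT cells (adjusted p = 0.00274) and 2.06-fold lower in DoxR-v than in the DoxR line (adjusted p = 0.000773). A second SYN2 probe was called lower in WT-v (−1.43, adjusted p = 0.000174) and also in DoxR-v against WT (−0.77, adjusted p = 0.00972), and did not pass the fold threshold in DoxR-v against DoxR (−0.54). SNCB, beta-synuclein, was detected on 3 DoxR-v, 1 DoxR, 0 WT-v and 1 WT arrays and measured 5.84, 6.33 and 6.52 in DoxR-v, 5.18, 5.55 and 5.39 in DoxR, 5.02, 4.92 and 4.94 in WT-v, and 4.94, 6.46 and 5.21 in WT. It was at least 1.77-fold higher in DoxR-v than in WT-v cells (adjusted p = 0.00753) and 1.81-fold higher than in the DoxR line (adjusted p = 0.0494). The call against DoxR was lost without DoxR-v replicate 2 (0.81) or 3 (0.71) or DoxR replicate 1 (0.76), and a second probe gave 1.21 against WT-v (adjusted p = 0.000314) and 0.52 against DoxR.

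CADPS, the priming factor CAPS1 of dense-core vesicles, was higher in both resistant lines. It measured 8.75, 8.51 and 8.07 in DoxR-v, 8.30, 8.31 and 8.40 in DoxR, 7.79, 7.76 and 7.45 in WT-v, and 7.67, 7.38 and 7.96 in WT arrays, with both resistant lines above the other 2 groups. The fold over WT was 1.70 in DoxR-v (adjusted p = 0.00898) and 1.59 in DoxR cells (adjusted p = 0.0147), and 1.71 in DoxR-v over WT-v (adjusted p = 0.00879). The DoxR log2 change was 0.52 without WT replicate 2, under the fold threshold, and the other 2 CADPS probes were detected on no array. CADPS2, its relative, was detected on 1 WT array, and its call in DoxR against WT (adjusted p = 0.0541) is given with no fold and was lost without DoxR replicate 2 (−0.66) or 3 (−0.58).

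The synaptic membrane and growth cone genes were DLG4, NRXN2 and GAP43. DLG4, the postsynaptic scaffold PSD-95, was detected on 2 of 3 WT arrays and measured 6.68, 6.69 and 6.69 in DoxR-v, 7.45, 7.17 and 7.51 in DoxR, 7.33, 5.99 and 7.08 in WT-v, and 5.86, 5.52 and 5.58 in WT. All WT arrays were below all others, and the fold was 2.05 in DoxR-v (adjusted p = 0.0108), 3.30 in DoxR (adjusted p = 0.000231) and 2.22 in WT-v cells (adjusted p = 0.00567). The DoxR-v and WT-v calls did not pass with the deposited normalized values (0.35 and 0.43) or without background correction (0.47 and 0.56). The call of DoxR-v against DoxR (−0.69, adjusted p = 0.0675) was lost without any 1 DoxR-v array (−0.68 to −0.69) and without DoxR replicate 1 (−0.65) or 3 (−0.62). NRXN2, a presynaptic adhesion protein, measured 6.38, 6.73 and 7.04 in DoxR-v, 7.70, 7.66 and 8.09 in DoxR, 6.27, 6.25 and 6.29 in WT-v, and 6.56, 6.67 and 5.95 in WT. The DoxR arrays lay above all others, 2.69-fold higher than WT (adjusted p = 0.00016), and DoxR-v cells were 2.14-fold lower than DoxR cells (adjusted p = 0.00134). GAP43, a growth cone phosphoprotein, measured 10.45, 10.25 and 10.40 in DoxR-v, 9.68, 9.62 and 9.69 in DoxR, 11.32, 11.02 and 11.09 in WT-v, and 10.24, 10.49 and 10.43 in WT. It was 1.65-fold lower in DoxR (adjusted p = 0.000844) and 1.69-fold higher in WT-v than in WT cells (adjusted p = 0.001), 1.63-fold higher in DoxR-v than in the DoxR line (adjusted p = 0.00118) and 1.71-fold lower in DoxR-v than in WT-v cells (adjusted p = 0.000805), while DoxR-v against WT gave −0.02 (95% interval −0.30 to 0.27).

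Vorinostat had been given to cells of 2 backgrounds, so the DoxR-v minus DoxR difference was set against the WT-v minus WT difference in 1 fit. Of 42 members, 20 were called for the difference of these differences (47.6%), 11 higher and 9 lower, where 42.6% of all genes were (20.5% higher and 22.1% lower). The member share was thus close to that of all genes. With the deposited normalized values 8 members were called higher and 3 lower, where 24.3% of all genes were called and 49.4% of those calls were higher. With median scaling 8 were higher and 9 lower, where 33.3% of the calls over all genes were higher. In 14 of the 20, DoxR-v minus DoxR and WT-v minus WT had opposite signs. Being called for a large difference between these values itself favours opposite signs, and the share over all genes was not counted. Some of the values were near 0, as for SYP (0.07 for DoxR-v minus DoxR) and VAMP1 (0.06 for WT-v minus WT). SYT7 had the largest positive value, with 1.91 for DoxR-v minus DoxR and −0.48 for WT-v minus WT, a difference of 2.39 (adjusted p = 1.28e-05). RAB27B had the largest negative one, with −1.64 for DoxR-v minus DoxR and 1.15 for WT-v minus WT, a difference of −2.79 (adjusted p = 2.58e-06). Next were SYNGR1 at 1.75 (adjusted p = 9.66e-05), RAB3C at 1.65 (adjusted p = 7.44e-05) and DLG4 at −1.84 (adjusted p = 0.00225). For DNM1, SNCB and STX3 at least 1 of the 4 groups was detected on no array, so no size of their difference is read here.

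RAB27B, DLG4 and RAB3C were called in both backgrounds in opposite directions. GAP43, RIMS2, SYN2 and SYT11 were called in both in 1 direction, GAP43 higher and the other 3 lower in the vorinostat-exposed group. Their differences did not pass, at −0.05 for GAP43 (95% interval −0.46 to 0.35), −0.05 for RIMS2 (−0.48 to 0.39), −0.14 for SYN2 (−0.70 to 0.43) and −0.48 for SYT11 (−0.96 to 0.01), although the second SYN2 probe gave 0.89 (adjusted p = 0.023). For the other SYNGR1 probes the difference was 3.19 and 3.94, for the second SNAP25 probe 1.09 and for the second SNCB probe 1.11, all called, while of the 4 other NSF probes 1 was called (0.93, adjusted p = 0.0135) and 3 were not (0.64, 0.62 and 0.27, adjusted p = 0.141, 0.154 and 0.699), the dim SYT7 probe gave −0.06 (adjusted p = 0.941) and the second UNC13A probe 0.00 (adjusted p = 0.994). The calls of STX3, STX7, SYNJ1, VAMP1 and VAMP2 in this contrast each depended on single arrays. STX3 was lost without DoxR-v replicate 2 or 3, WT-v replicate 1 or 2, or WT replicate 1 or 3 (−0.61 to −0.66), and STX7 without DoxR-v replicate 3, WT-v replicate 3 or WT replicate 1 (0.56 to 0.58). SYNJ1 was lost without DoxR-v replicate 3 (0.57), and VAMP1 without DoxR-v replicate 1, DoxR replicate 2 or 3, WT-v replicate 1 or WT replicate 1 (−0.48 to −0.61). VAMP2 was lost without DoxR-v replicate 1 or 2, DoxR replicate 1 or 3, WT-v replicate 1 or 3, or WT replicate 1 or 2 (−0.67 to −0.86).

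**Figure D4:**
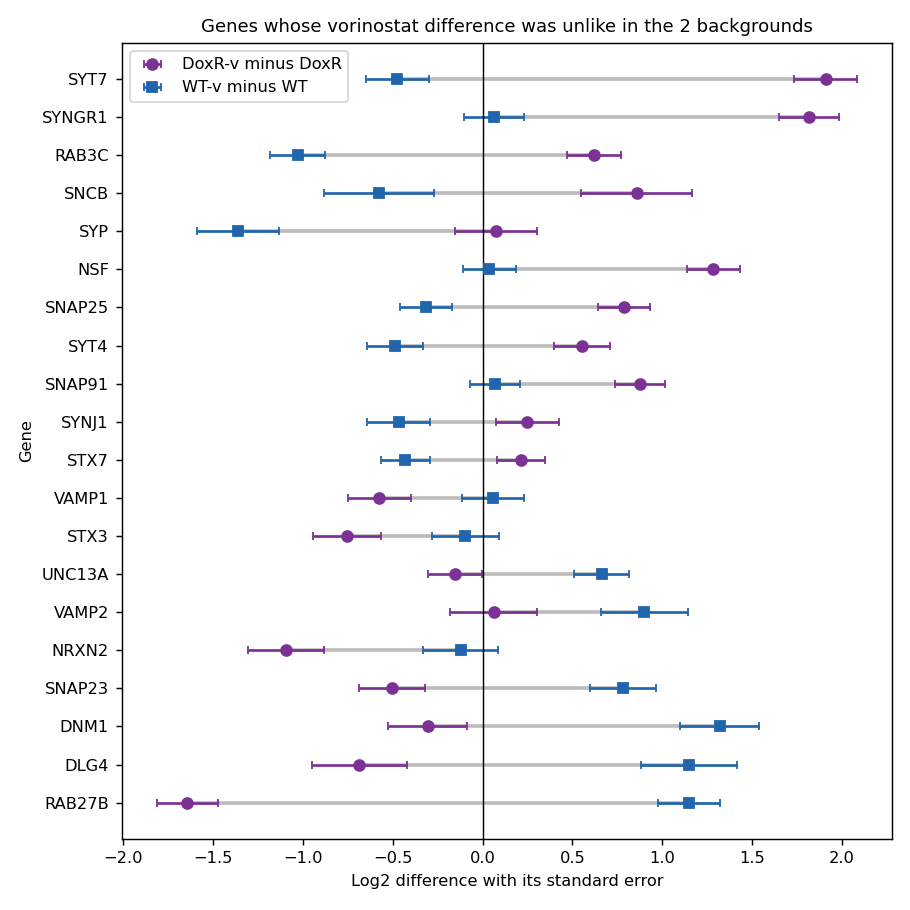
Log2 difference with its standard error for DoxR-v minus DoxR (circles) and WT-v minus WT (squares), for the 20 members called for the difference between them, ordered by that difference. The order runs from SYT7 at the top, with a difference of 2.39, to RAB27B at the bottom, with −2.79, and the points of DNM1, SNCB and STX3 rest in part on groups detected on no array.

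Of 69 further genes of the same pathway, 63 had a probe and 46 were tested. The calls were 7 higher and 5 lower in DoxR-v, 11 and 6 in DoxR, and 8 and 7 in WT-v against WT, 7 and 8 in DoxR-v against DoxR, and 7 and 1 in DoxR-v against WT-v. These made 26.1%, 37.0%, 32.6%, 32.6% and 17.4% of the genes tested, where the shares of all genes were 26.0%, 33.9%, 27.1%, 29.2% and 25.5%. SLC32A1, which loads GABA into vesicles, was detected on no WT array and was at least 2.78-fold higher in DoxR-v (adjusted p = 2.82e-07), 3.42-fold in DoxR (adjusted p = 4.31e-08) and 1.01-fold in WT-v cells (adjusted p = 0.000463). PCLO, the active zone scaffold piccolo, detected on 1 of 3 WT arrays, was 2.54-fold higher in DoxR-v (adjusted p = 0.000992), 4.0-fold in DoxR (adjusted p = 2.57e-05) and 2.84-fold in WT-v cells (adjusted p = 0.000475). SLC18A1, the monoamine transporter of chromaffin granules, averaged 10.03 ± 0.31 in DoxR-v, 9.05 ± 0.11 in DoxR, 9.60 ± 0.05 in WT-v and 11.03 ± 0.25 in WT arrays (SD, n = 3 each). It was lower than WT in all 3 groups, by log2 changes of −1.0, −1.98 and −1.43 (adjusted p = 0.000903, 1.83e-06 and 7.46e-05). SLC18A2, the neuronal monoamine transporter, was detected on all DoxR-v and WT arrays (6.68 ± 0.80 and 6.74 ± 0.49) and on no DoxR or WT-v array, and was at least 2.34-fold higher in DoxR-v than in the DoxR line (adjusted p = 0.000223) and at least 2.42-fold higher than in WT-v cells (adjusted p = 0.000301).

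SLC18A3, the acetylcholine transporter, was detected on 3 DoxR-v, 0 DoxR, 2 WT-v and 1 WT arrays and was at least 2.49-fold higher in DoxR-v than in the DoxR line (adjusted p = 0.000298). PPFIA2, a liprin of the active zone, was detected in DoxR cells alone, on 3 arrays, at least 1.69-fold higher than in WT (adjusted p = 6.01e-07). The same held for SYT17, a synaptotagmin relative, at least 1.36-fold lower in DoxR-v than in the DoxR line (adjusted p = 2.34e-05). SH3GL3, an endophilin, was detected on WT-v arrays alone, at least 1.38-fold higher than in WT (adjusted p = 8.76e-05). PPFIA2, SYT17 and SH3GL3 passed the detection filter only through the group where they were high, and were named for the size of their change. Their adjusted p-values are therefore no independent support for these differences. RIMS4, a small RIM protein, was 2.30-fold higher in DoxR-v than in WT cells (adjusted p = 0.00029), where STX4, a plasma membrane syntaxin, and SH3GL1, another endophilin, changed by −0.77 (adjusted p = 0.0126) and −0.73 (adjusted p = 0.00662). DOC2A, a calcium sensor of spontaneous release, was 2.19-fold higher in DoxR-v than in the DoxR line (adjusted p = 0.000574), and SYT9 changed by −1.14 there (adjusted p = 0.00239). PPFIA3, another liprin, was at least 1.18-fold lower in WT-v than in WT cells (adjusted p = 0.063), where it was detected on 2 of 3 arrays.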

How the data were processed

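Total RNA of SK-N-Be(2)C cells was hybridised to Illumina HumanHT-12 v4 BeadChips, 12 arrays in 4 groups. The deposited probe signal intensity was summarised from beads but not normalized between arrays, and per the file headers each signal has a detection p-value. A second set of intensity values was quantile normalized by the authors, on a linear scale. The tools listed in the submitters' processing notes are lumi 2.13.3 with R 3.0.1, and the bead summarising software is not given in the sources used here. Samples of another cell line, SK-N-SH, were not analysed here.

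Background was corrected by normexp (offset 16) with parameters taken from the detection p-values, followed by quantile normalization and log2. The platform annotation gave 1 gene symbol to 30113 of 47323 probes, several to 8 and none to 17202, and 30074 were matched to RefSeq by Entrez ID. Probes with a detection p under 0.01 on at least 1 array were kept (21730). Members had 87 probes, of which 59 were kept, and each gene was represented by its brightest probe, by the mean of all arrays. A limma model (version 3.58.1, R 4.3.3) with 1 mean per group was fitted to all 12 arrays, with Benjamini-Hochberg adjustment over all probes kept, and calls needed both a fold change over 1.5 and an adjusted p under 0.1. Where the lower group was detected on none of its arrays, its arrays took the higher of their own value and the lowest detected signal, and the fold is printed as at least that value. Scripts were checked on simulated data. The number of arrays limits the precision.

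The members, the further pathway genes and the marker lists were chosen with earlier results of these data known. Named were all called members, their relatives, and the 3 further pathway genes with the largest change each way per comparison. Alternatives were the deposited normalized values, an offset of 50, no background correction, median scaling, other detection filters, the mean over a gene's probes, a fit to only the groups compared, a replicate block, other thresholds and leaving out each array. No slide or scan information was found in the files used here. Of the blood cell markers, CD14 was detected on 2 of 3 DoxR-v arrays and on all others, and was lower than WT in DoxR-v, DoxR and WT-v cells (log2 changes of −1.64, −1.55 and −1.37).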

Additional observations from a re-analysis of the deposited data

Results flagged for a closer look

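Each gene below was called in the test that sets the DoxR-v minus DoxR change against that of WT-v minus WT. For the vesicle genes described above the log2 values above 0 were 2.39 for SYT7, 1.75 for SYNGR1, 1.65 for RAB3C, 1.44 for SNCB, 1.43 for SYP, 1.25 for NSF, 1.10 for SNAP25, 1.04 for SYT4, 0.80 for SNAP91, 0.72 for SYNJ1 and 0.64 for STX7. The values below 0 were −0.63 for VAMP1, −0.66 for STX3, −0.82 for UNC13A, −0.84 for VAMP2, −0.97 for NRXN2, −1.28 for SNAP23, −1.63 for DNM1, −1.84 for DLG4 and −2.79 for RAB27B. For the further pathway genes they were 4.39 for SLC18A2, 2.41 for SLC18A1 and 2.33 for SLC18A3, the vesicular transporters of monoamines and acetylcholine, and −1.50 for STXBP3, a Munc18 relative, −1.54 for PPFIA2 and −2.16 for PCLO. The values of DNM1, SNCB, STX3, SLC18A2, SLC18A3 and PPFIA2 each include at least 1 group detected on no array and are not sizes to rely on. With the deposited normalized values those of DNM1 and SNCB were −0.58 and 0.41, not called. The calls of NRXN2, STX3, STX7, SYNJ1, UNC13A, VAMP1 and VAMP2 were lost there too. A second detected probe gave −0.06 for SYT7 and 0.00 for UNC13A, neither called. For NSF, 3 of 4 other probes were not called. Such calls were common, at 42.6% of all genes tested, and the separate selection of DoxR-v and DoxR cells enters them.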

How the results depend on the processing

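Counts are given in the order DoxR-v, DoxR and WT-v against WT, DoxR-v against DoxR, DoxR-v against WT-v, and the difference of the vorinostat effect. The members called were 14, 21, 14, 17, 14 and 20. Starting from the deposited normalized values gave 8, 13, 7, 10, 9 and 11, leaving out the background correction gave 9, 13, 8, 11, 9 and 13, and at a fold change over 2 they were 6, 10, 6, 8, 5 and 12. Calls over all genes fell too, at 26.0%, 33.9%, 27.1%, 29.2%, 25.5% and 42.6% of genes as reported, 10.9%, 16.3%, 11.6%, 14.4%, 11.1% and 24.3% with the deposited normalized values, 13.7%, 19.5%, 14.2%, 17.4%, 13.6% and 28.9% without the correction, and 8.88%, 14.8%, 9.36%, 12.3%, 9.27% and 23.2% at a fold change over 2. Leaving out each array in turn gave 13 to 16, 16 to 22, 13 to 16, 13 to 18, 12 to 15 and 17 to 20. The other alternatives stayed within 1.5 times.

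Of 100 calls of a member, 58 were kept in the values normalized by the authors, 63 without the correction, 79 with an offset of 50, 87 with median scaling and 78 with the mean of all probes, where SYNJ1 in DoxR against WT turned to −0.024 (adjusted p = 0.891). With median scaling RAB3C, RIMS2 and RPH3A, the 3 lower calls in DoxR-v against WT, gave −0.51, −0.42 and −0.51 and did not pass. Same-numbered arrays of different groups did not deviate together (18 correlations, −0.271 to 0.114), and the main fit did not pair them. The labels do not say whether same-numbered samples were handled together, and the correlations cannot decide it. A fit with the replicate block called 15, 21, 14, 17, 14 and 21 members and lost none of the 100 calls. Signal over background limits CADPS2, RAB3B, STX3, SV2B and SYNGR3, each detected on 1 or 2 arrays. The cause of these shifts was not tested.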
